A study of Mus musculus with 12 samples.

Results

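The genes described here encode the proteasome, the chambered protease that degrades ubiquitin-tagged proteins in the cytosol and nucleus. They were chosen by symbol: genes named Psma, Psmb, Psmc, Psmd, Psme, Psmf or Psmg with a number, without the immunoproteasome genes Psmb8, Psmb9 and Psmb10, and with a mean of at least 10 reads over the 12 libraries. Of 17379 genes in the deposited table, 50 symbols matched and 46 genes were kept. Just inside the minimum was Psma8, with 0 to 16 reads per library, and just outside was the thymus subunit gene Psmb11, with a mean of 1.58 reads. Of the 46, 43 also had a mean of at least 50 reads. One kept gene fits the name but not the complex: Psmc3ip encodes a partner of meiotic recombinases and is counted here only because the symbol matches. Another, Psme2b, is a near copy of Psme2, and its reads cannot be told from those of Psme2 with certainty.

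Whole-heart mRNA was sequenced from C57BL mice aged 6 months, with 3 libraries in each of 4 groups. The nontransgenic mice carried neither alteration. The second group was homozygous for a 25 bp deletion in MYBPC3, the gene of cardiac myosin-binding protein C. The third was heterozygous for S96A in HRC, the gene of a protein inside the sarcoplasmic reticulum that is rich in histidine and binds calcium, and the compound group was heterozygous for S96A and homozygous for the deletion. Libraries 1 and 2 of the nontransgenic and the MYBPC3 deletion group came from males and library 3 from a female, whereas all 6 HRC variant and compound libraries came from females. The labels call the mutants transgenic and do not name a promoter, so how each alteration is driven is not known from them. The study set the 3 mutant groups against the nontransgenic mice. Nothing beyond the labels says that the 3 libraries of a group are separate mice, and p-values here reflect library-to-library spread, which may be technical. Where values are listed by library, the groups come in the order nontransgenic, MYBPC3 deletion, HRC variant and compound, with libraries 1, 2 and 3 of each.

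The 20S core of the proteasome is a stack of rings. The outer rings hold the alpha subunits (Psma genes) and gate the channel, and the inner rings hold the beta subunits (Psmb genes), of which beta5, beta1 and beta2, encoded by Psmb5, Psmb6 and Psmb7, cut peptide bonds. The 19S cap recognises ubiquitin and unfolds substrates, with a ring of ATPases (Psmc genes) and further subunits (Psmd genes). Activators (Psme genes), the inhibitor PI31 (Psmf1) and assembly chaperones (Psmg genes) bind the 20S core. In heart muscle the system removes damaged and surplus sarcomere proteins, and its subunit genes are known to be induced together by Nrf1 (Nfe2l1) when proteasome activity is limiting.

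Libraries held 15615189 to 20581196 reads assigned to genes, and the 46 proteasome genes took 0.367 to 0.433% of them. Markers of ventricular cardiomyocytes summed to 61760 to 98050 CPM (reads scaled to a common library size) in all groups. Atrial markers summed to 3509 to 8686 CPM in nontransgenic hearts and to 209 to 508 in compound hearts, with 273 to 8579 in the HRC variant group. B-cell markers were highest in MYBPC3 deletion library 2 (73.1 CPM) and nontransgenic library 2 (37.8) against 3.26 to 8.02 in the other libraries. Erythroid markers were highest in nontransgenic library 1 (7660 CPM) and MYBPC3 deletion library 2 (6654). In bulk tissue, fewer cells of a type and less RNA per cell cannot be told apart.

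Mybpc3 itself had 4885, 3521 and 3630.0 CPM, then 2464, 2918 and 2532, then 2897, 3297 and 3848, then 3532, 3658 and 3923. The deletion group lay below the nontransgenic group, with a log2 fold change of -0.60 (SE 0.16, edgeR adjusted p 0.36), while the compound group, which carries the same deletion, overlapped it. A level cannot check a deletion of 25 bp. Hrc had 1129 ± 224 CPM (SD, n = 3) in nontransgenic and 1162 ± 189.8 in HRC variant hearts, and the amino acid change cannot be read from a level either.

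Messenger RNAs of the subunits of one ring differed per length by ratios of 1.56 to 2.69 between the highest and the lowest, with Psma8 left out. Levels between genes are compared in TPM, a deposited unit that divides reads by transcript length and scales each library to one sum. The 7 beta genes had means of 182 TPM (Psmb4, a noncatalytic subunit) to 284 (Psmb2, another noncatalytic subunit), a ratio of 1.56 between the highest and the lowest. The 7 alpha genes other than Psma8 had 65.5 TPM (Psma5) to 176 (Psma6), a ratio of 2.69. The 6 ATPases had 82.4 (Psmc6) to 214 TPM (Psmc3), a ratio of 2.59. Among the other 11 subunits of the 19S cap the range was 43.3 TPM (Psmd14, the deubiquitinase Rpn11) to 166 (Psmd8), a ratio of 3.84. All together the beta genes held 31.3% of the summed proteasome TPM, the alpha genes 18.5%, the Psmc genes 15.3% and the Psmd genes 23.0%.

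Assembly factors named by the Psmd and Psmg symbols stood below most subunit genes, unlike Pomp, the maturation factor of the 20S core outside the symbol rule, which had 174 TPM. Psmd5, Psmd9 and Psmd10, which chaperone the ATPase ring and leave the finished particle, had 15.1, 11.3 and 10.8 TPM, below the 43.3 of the lowest other Psmd gene. The Psmg chaperones of the alpha ring had 10.2 (Psmg3), 23.5 (Psmg4), 37.3 (Psmg1) and 42.4 TPM (Psmg2). Psmf1 had 16.7 TPM. Of the activators, Psme1 (PA28 alpha) had 186 TPM, Psme2 (PA28 beta) 107, Psme4 (PA200) 89.6 and Psme3 (PA28 gamma) 65.6. The lowest levels were those of Psme2b (3.26 TPM), Psmc3ip (3.66) and Psma8 (0.573), the alpha subunit of testis proteasomes.

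**Figure D1:**
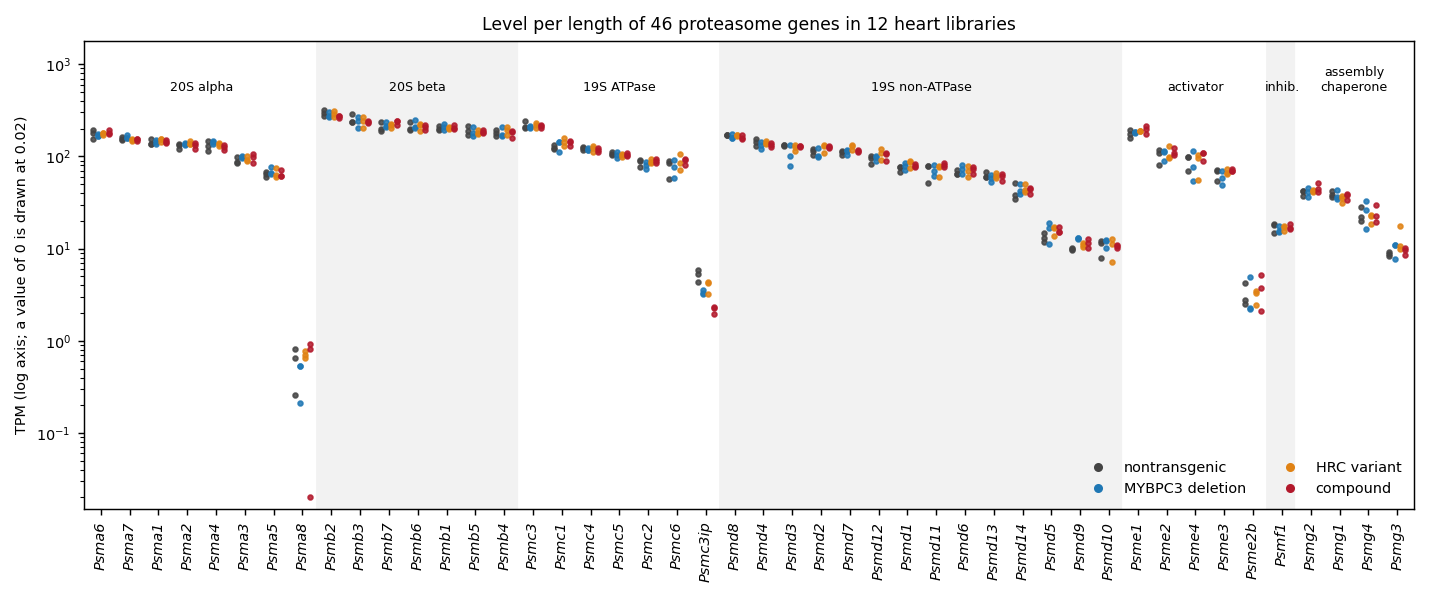
Level of each of the 46 genes in TPM (log axis) in the 12 libraries, grouped by role and coloured by genotype group, each point 1 library. The beta genes form a narrow band from 182 to 284 TPM on average, the genes of assembly factors lie at 10.2 to 42.4, and Psmc3ip, Psme2b and Psma8 lie below 10, with the 0 of Psma8 in compound library 3 drawn at the foot of the axis.

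This order was nearly the same in every library. Across the 46 genes, the Spearman correlation of TPM between any pair of libraries was at least 0.965, with a median of 0.987. These values are across genes, which are not independent replicates. Psmb2, the highest gene, had 321, 293 and 272 TPM, then 267, 301 and 277, then 312, 268 and 286, then 277, 272 and 264. Psmb4, the lowest beta gene, had 196, 178 and 167 TPM, then 169.9, 210.2 and 165, then 211, 170.2 and 192, then 184, 191 and 157. The 2 genes did not overlap in any group, while the 4 groups overlapped for each gene.

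The highest gene of each further role was as steady. Psma6 had 182, 195 and 154 TPM, then 176, 168 and 168, then 171, 178 and 181, then 174, 193 and 182. Psmc3, the gene of the ATPase Rpt5, had 240.1, 206 and 205 TPM, then 204, 211 and 212, then 206, 229 and 218, then 202, 219 and 212. Psmd8, the gene of the lid subunit Rpn12, had 171, 170.2 and 171 TPM, then 158, 159 and 173, then 171, 168 and 171, then 159, 154 and 170.4. All 4 groups overlapped for each of the 3 genes. Psmc3 lies on chromosome 2 only 58675 bp from the altered gene Mybpc3, and its level did not separate the groups that carry the deletion from the others. Psmg2 had 36.3 to 51.0 TPM and Psmf1 14.8 to 18.6 over all libraries, with every group overlapping the nontransgenic one. Psmd10, the gene of the chaperone gankyrin, had 7.93, 11.7 and 12.2 TPM, then 12.3, 10.1 and 12.1, then 12.6, 11.3 and 7.21, then 10.3, 10.7 and 11.03. Psme2b had 2.77, 4.20 and 2.51 TPM, then 2.21, 2.25 and 4.89, then 3.27, 3.49 and 2.44, then 2.11, 5.19 and 3.78, and the groups of both genes overlapped. Psma8 had 0 reads in compound library 3 and 4 to 16 in the other 11, and at that depth no difference was detectable.

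The catalytic genes far exceeded their inducible counterparts. In cells exposed to interferon, subunits encoded by Psmb8, Psmb9 and Psmb10 take the places of those encoded by Psmb5, Psmb6 and Psmb7. Psmb5 had 215, 191 and 173 TPM, then 178, 207 and 166, then 175, 192 and 181, then 178, 196 and 182. Psmb6 had 239, 197 and 195 TPM, then 208, 246 and 206, then 224, 187 and 220.1, then 221, 210.2 and 195. Psmb7 had 200.0, 235 and 191 TPM, then 215, 211 and 234, then 205, 219 and 224, then 244, 243 and 219.7. No group stood clear of the nontransgenic libraries for any of the 3.

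Psmb5 exceeded Psmb8 by 4.04 to 9.76 times in TPM over the 12 libraries, Psmb6 exceeded Psmb9 by 6.82 to 16.9 times, and Psmb7 exceeded Psmb10 by 2.51 to 4.46 times. The inducible genes were the more variable ones: Psmb8 ranged from 17.7 to 43.5 TPM, Psmb9 from 11.5 to 30.8 and Psmb10 from 52.8 to 81.6. Psmb9 was highest in compound library 2 and lowest in nontransgenic library 3. The ratio of Psme1 to Psme2, whose products form the PA28 ring together, was 1.43 to 2.08. Psme1 had 196, 176 and 159 TPM, then 186, 179 and 186, then 187, 191 and 189, then 198, 213 and 176. Psme2 had 117, 110.0 and 80.7 TPM, then 113, 115 and 89.4, then 131, 96.1 and 99.0, then 103, 124 and 108. All groups overlapped for Psme2. For Psme1 every mutant group overlapped the nontransgenic one, but the HRC variant libraries lay just above those of the MYBPC3 deletion.

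**Figure D2:**
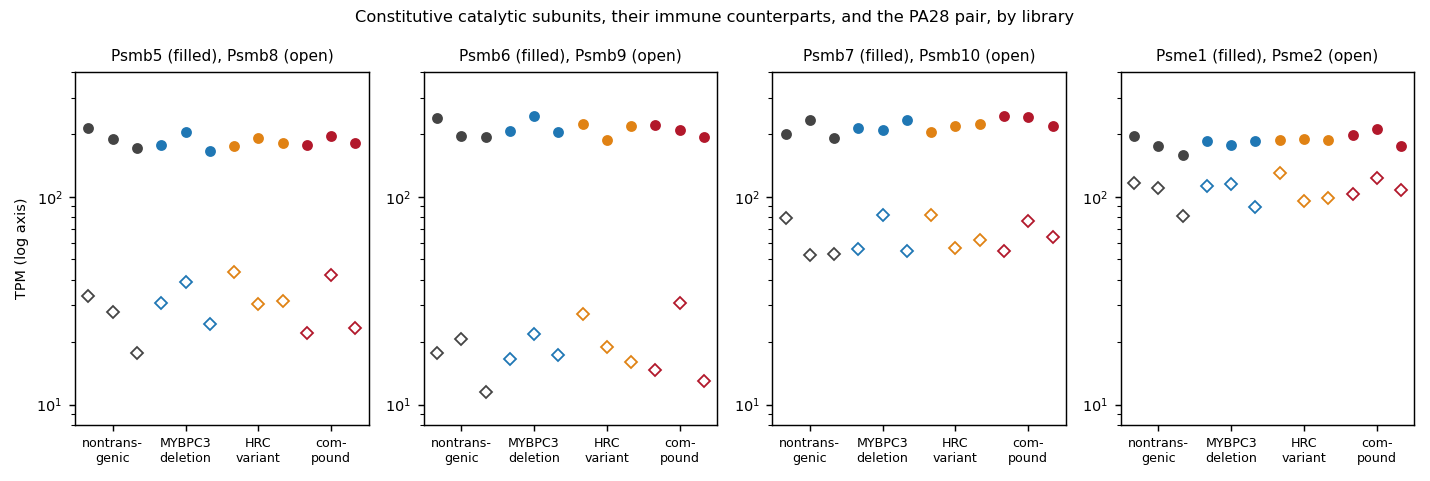
TPM (log axis) of Psmb5, Psmb6, Psmb7 and Psme1 (filled) beside Psmb8, Psmb9, Psmb10 and Psme2 (open) in each library, coloured by group. The filled points lie above the open points in every library, and the ratio of Psmb7 to Psmb10 (2.51 to 4.46) is the smallest of the 3 catalytic pairs.

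Upstream sequences were read for the 38 of the 46 genes that had an entry in the RefSeq promoter table (GRCm38.p6), over 250 bases before each annotated start and on both strands. Some genes, such as Psmc2, had several starts, and a gene counted when any of them matched. The number of starts per gene was not taken into account. The core of the antioxidant response element bound by Nrf1 and Nrf2, TGACNNNGC, was present in 5 of the 38 (13.2%) against 1530 of the promoters of 10964 tested genes. The core of ETS factor sites, CCGGAAG, was present in 13 of the 38 (34.2%) and in 14.6% of all. A CCAAT box (CCAAT) was present in 34.2% against 40.2%, and a GC box (GGGCGG) in 55.3% against 62.4%. Matches of different motifs can overlap each other in a promoter. A match is a run of letters and not a measured site. The stretches below are shown for genes named in the comparisons, in the direction of the gene, with the matched letters in capitals. The first 2 hold TGACNNNGC and belong to the catalytic gene Psmb5 and to Psmd9, and the other 4 hold CCGGAAG or its reverse complement CTTCCGG.
Psmb5, chr14:54618008-54618068, minus strand: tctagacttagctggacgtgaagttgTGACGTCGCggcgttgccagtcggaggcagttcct
Psmd9, chr5:123228133-123228189, plus strand: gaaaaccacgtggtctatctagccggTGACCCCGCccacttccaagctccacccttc
Psme3, chr11:101316080-101316138, plus strand: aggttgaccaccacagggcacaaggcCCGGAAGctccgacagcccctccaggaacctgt
Psme4, chr11:30771696-30771754, plus strand: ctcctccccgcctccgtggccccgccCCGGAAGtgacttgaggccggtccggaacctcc
Psmd11, chr11:80428578-80428614, plus strand: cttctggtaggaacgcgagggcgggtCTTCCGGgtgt
Psmc3ip, chr11:101095436-101095468, minus strand: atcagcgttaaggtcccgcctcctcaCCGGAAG
The 46 genes map to 16 chromosomes.

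No proteasome gene differed between genotype groups past the threshold. Differences are given as log2 fold changes with their standard errors (SE) from edgeR's quasi-likelihood fit of 13849 genes over all 12 libraries, with group and sex as terms, and the threshold for a call was 0.05 on the p adjusted by Benjamini and Hochberg's method. In all 6 comparisons edgeR called 0 of the 46 genes, and 0.0% of all tested genes. DESeq2, limma-voom and edgeR's likelihood ratio test also called none of the 46 that had an adjusted p. In the authors' deposited table none of the 46 had a q-value under 0.05, against 0.0945% of genes for the deletion, 0.0775% for the HRC variant and 2.43% for the compound group over nontransgenic hearts, and 4.24% and 0.389% for the compound group over the deletion and the variant. The smallest q-value in the authors' deposited table was 0.0663, for Psmc3ip in compound over nontransgenic hearts. The comparisons share their nontransgenic or compound libraries, so they are not independent of each other.

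With the MYBPC3 deletion, the 46 genes were centred near no difference from nontransgenic hearts. The median of their log2 fold changes was 0.03, against -0.01 over all tested genes, and 25 of 46 lay above 0 against 49.2% of all. By role, the medians were 0.07 for alpha genes, 0.02 for beta genes, -0.04 for Psmc genes, 0.08 for Psmd genes and -0.06 for activators. The sign of the median over all 46 rests on single libraries: it was -0.03 without MYBPC3 deletion library 2 and -0.10 without nontransgenic library 2. At an unadjusted p under 0.05 stood 2 genes of 46, against 8.16% of all genes (1130 of 13849). DESeq2 called 0.595% of all genes, the likelihood ratio test 0.108% and limma-voom 0.0%.

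Psmd3 was the one with a negative value. It encodes Rpn3, a scaffold subunit of the 19S lid, and lies at chr11:98682554-98695978 in the RefSeq annotation of GRCm38.p6. Its CPM were 206, 159 and 161 in nontransgenic hearts against 132, 119.8 and 154 in the deletion group, and the groups did not overlap. The log2 fold change was -0.38 (SE 0.14), with an unadjusted p of 0.0153 and an adjusted p of 0.51 in edgeR's quasi-likelihood test. The low values were those of the 2 male libraries of the deletion group. Among females alone the log2 fold change was -0.05, and without nontransgenic library 1 it was -0.23. In TPM the groups overlapped, with 129.7 to 134.7 against 78.3 to 133.7.

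Psmd9 was the other, with a positive value. Its product, p27, is an assembly chaperone of the ATPase ring, and the gene lies at chr5:123228190-123250126. It had 19.8, 14.1 and 14.1 CPM in nontransgenic hearts against 20.97, 24.1 and 17.6 in the deletion group, so the groups overlapped by 1 library on each side. In TPM they did not overlap, with 10.3, 9.84 and 9.70 against 13.2, 12.98 and 12.6. The log2 fold change was 0.38 (SE 0.15), with an unadjusted p of 0.0269 and an adjusted p of 0.57 by edgeR's quasi-likelihood test. It was 0.24 without nontransgenic library 2 and 0.52 without nontransgenic library 1.

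Psme3, the gene of the nuclear activator PA28 gamma, was the other gene whose CPM did not overlap: 106, 104 and 101 against 93.7, 91.0 and 97.4. Its log2 fold change was -0.14 (SE 0.10) with an unadjusted p of 0.164, and -0.04 among females alone. In all, 2 of 46 genes did not overlap between these groups, against 10.4% of all genes. Psmc3ip had 3.63, 2.26 and 3.02 CPM against 1.83, 2.35 and 1.65, a log2 fold change of -0.62 (SE 0.34) with an unadjusted p of 0.0898.

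In HRC variant hearts, 37 of the 46 genes had a fitted value above that of nontransgenic hearts, against 50.7% of all genes, and the median log2 fold change was 0.12, against 0.01 over all. All 8 alpha and all 7 beta genes lay above 0, with medians of 0.16 and 0.14. None of the 46 reached an unadjusted p under 0.05, against 6.23% of all genes. DESeq2 called 0.181% of all genes, the likelihood ratio test 0.0722% and limma-voom 0.0%. This direction rests on the sex term, since all HRC variant libraries and 1 of 3 nontransgenic libraries are female: without the term the median was -0.08. When the trend of the fold changes with transcript length was removed, the median was 0.03.

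Named by the smallest p in this comparison, Psme2 had 73.7, 51.8 and 38.2 CPM in nontransgenic hearts against 65.99, 42.9 and 49.8. The groups overlapped, the fitted log2 fold change was 0.45 (SE 0.22) with an unadjusted p of 0.0586, and it was -0.04 with no sex term. Psmd5, which encodes the ATPase ring chaperone S5b, had 18.6, 16.3 and 13.2 CPM against 16.4, 17.8 and 20.4, with a log2 fold change of 0.36 (SE 0.20) that was 0.16 without nontransgenic library 3. Psmd7, the gene of the lid subunit Rpn8, had 122, 98.6 and 99.4 CPM against 110.1, 107 and 122, a log2 fold change of 0.22 (SE 0.14). Psmg3 had 4.88, 3.85 and 4.04 CPM against 8.46, 4.50 and 4.72. One HRC variant library decides that value: the log2 fold change of 0.52 (SE 0.34) was 0.18 without HRC variant library 1. No gene of the 46 was clear of overlap here, against 7.94% of all genes.

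In compound hearts, 35 of 46 genes had a fitted value above that of nontransgenic hearts, against 49.7% of all, with a median log2 fold change of 0.09 against -0.002 over all. Without the sex term the median was -0.08. The alpha genes had a median of 0.15, the beta genes 0.14, the Psmc genes -0.002 and the Psmd genes 0.08. At an unadjusted p under 0.05 stood 2 genes of 46, against 6.36% of all genes: Psmc3ip and Psme2. DESeq2 called 0.275% of all genes, the likelihood ratio test 0.303% and limma-voom 0.0%.

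The largest difference in this comparison was that of Psmc3ip, which is no proteasome part. It lies at chr11:101092141-101095435 and overlaps Mlx by 67 bp. Its CPM were 3.63, 2.26 and 3.02, then 1.83, 2.35 and 1.65, then 1.78, 2.15 and 2.33, then 1.22, 1.24 and 1.01. The 3 compound libraries lay below all 9 others. Against nontransgenic hearts the log2 fold change was -1.27 (SE 0.41), with an unadjusted p of 0.00799 and an adjusted p of 0.63 by edgeR's quasi-likelihood test. It was between -0.99 and -1.38 when any 1 library was left out. Against HRC variant hearts it was -0.85 (SE 0.35), with an unadjusted p of 0.0295. The gene had 18 to 62 reads per library, and whether reads of Mlx enter its count is not known, because the sources used here do not say whether counting used strand.

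Psme2, the other gene, lies at chr14:55587440-55591101. Its 49.4, 60.9 and 51.2 CPM in compound hearts lay within the 38.2 to 73.7 of nontransgenic hearts. The fitted log2 fold change of 0.47 (SE 0.22, unadjusted p 0.0478, edgeR adjusted p 0.78) arose with the sex term and was -0.02 without it. Psmb7 had a log2 fold change of 0.26 (SE 0.15), with 125, 127 and 111 CPM against 137, 116 and 95.4, and Psmd5 one of 0.34 (SE 0.20), with 16.9, 17.6 and 19.5 against 18.6, 16.3 and 13.2. Both overlapped.

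CPM of 4 of 46 genes did not overlap between compound and nontransgenic hearts, against 18.8% of all genes. Psmd11, the gene of the lid subunit Rpn6, had 108, 106 and 108 CPM against 94.2, 101 and 98.7, with a log2 fold change of 0.17 (SE 0.14). Psmd3 had 158, 156 and 157 CPM in compound hearts, below the nontransgenic range and above that of the deletion group, with a log2 fold change of -0.20 (SE 0.17). Psmf1 had 29.5, 30.9 and 31.4 CPM against 34.0, 32.2 and 32.1, with a log2 fold change of 0.01 (SE 0.15) once sex was in the fit. The other gene was Psmc3ip.

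**Figure D3:**
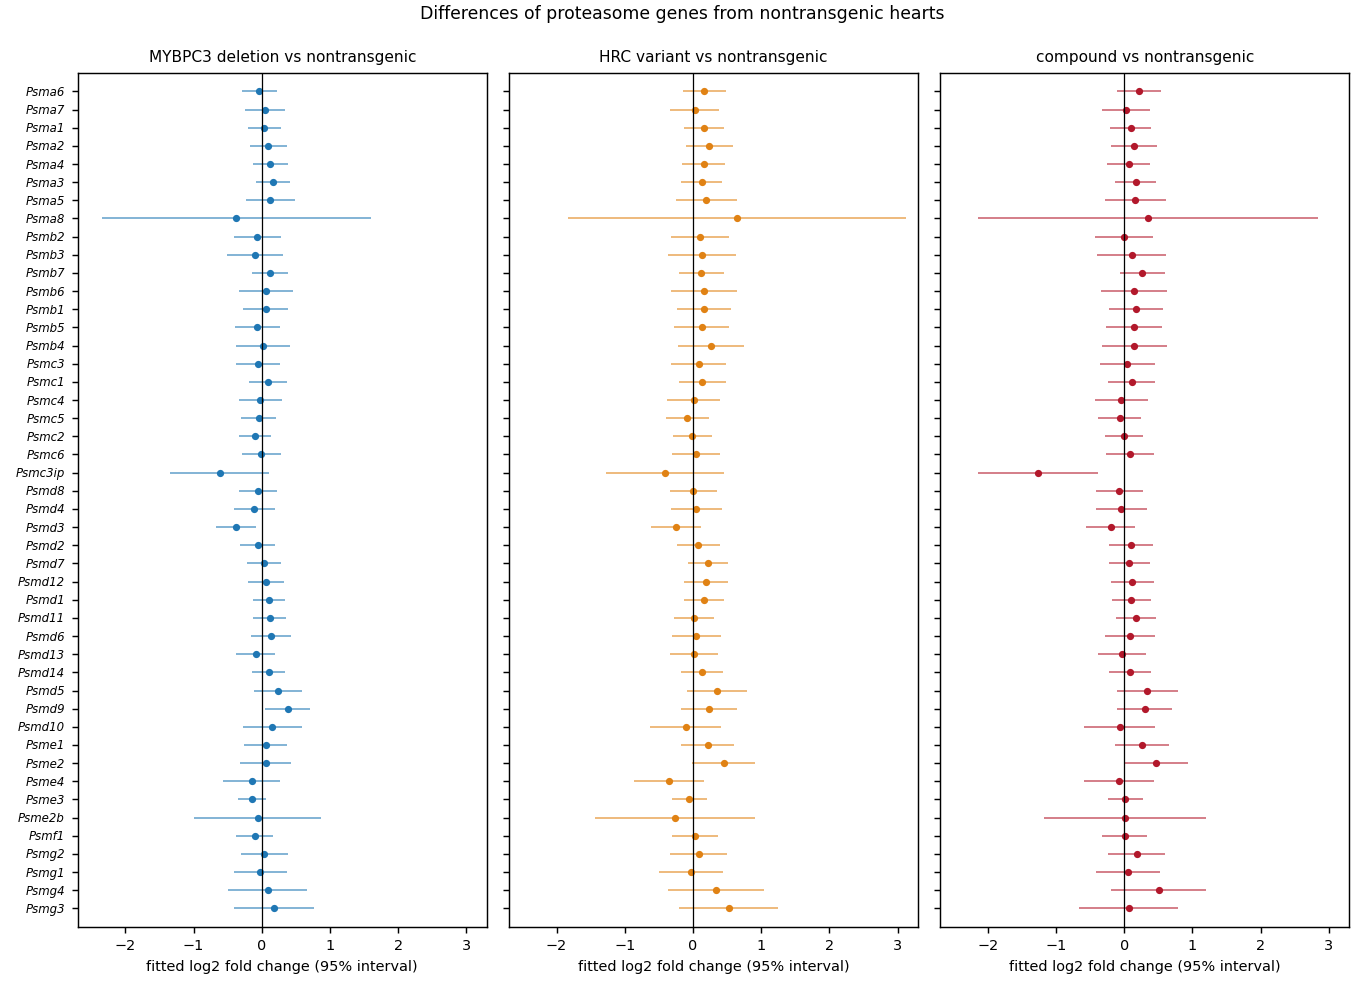
Fitted log2 fold change (point) and its 95% interval (line) of each gene against nontransgenic hearts, 1 panel per mutant group. Most points lie within 0.5 of 0, the intervals of Psma8 are the widest, and the interval of Psmc3ip in compound hearts runs from -2.14 to -0.39.

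Compound hearts were also set against each single mutant. Against the MYBPC3 deletion, none of the 46 genes reached an unadjusted p under 0.05, against 5.73% of all genes, and 35 of 46 lay above 0, against 52.2% of all. The median log2 fold change was 0.07, against 0.01 over all. DESeq2 called 0.0433% of all genes, the likelihood ratio test 0.0289% and limma-voom 0.0%. Without the sex term the median was -0.12. The smallest p among the 46 was that of Psme2 (log2 fold change 0.41, SE 0.21, unadjusted p 0.0757), followed by Psma6 (0.25, SE 0.15). CPM of 6 genes did not overlap, against 25.1% of all: Psmd3 and Psme3 were higher in compound hearts, and Psma4, Psmc3ip, Psmd10 and Psmd14 were lower. Psme3 had 102, 106 and 108 CPM in compound hearts and 93.7, 91.0 and 97.4 with the deletion.

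Against the HRC variant, both groups being female, the median log2 fold change was -0.01 (-0.01 over all genes) and 23 of 46 genes lay above 0, against 47.6% of all. One gene of 46, Psmc3ip, had an unadjusted p under 0.05, against 6.3% of all. DESeq2 called 0.311% of all genes, the likelihood ratio test 0.238% and limma-voom 0.0%. CPM of 2 genes did not overlap, against 12.4% of all: Psmc3ip, and Psmd7 with 98.5, 105 and 103 against 110.1, 107 and 122. Psme4, whose product PA200 caps the 20S core in the nucleus, had 401, 343 and 402 CPM in compound hearts against 214, 362 and 368, a log2 fold change of 0.28 (SE 0.19). The value of 214 belonged to HRC variant library 1, and the other 2 overlapped the compound group.

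The interaction asks whether the compound difference is what the MYBPC3 deletion and HRC variant differences add up to in log2. Its median over the 46 genes was -0.03, against -0.01 over all, and 21 of 46 lay above 0, against 48.4% of all. At an unadjusted p under 0.05 stood 1 gene of 46, against 8.54% of all genes: Psmd3, with an interaction of 0.43 (SE 0.19, unadjusted p 0.0432, edgeR adjusted p 0.58). Its value among females alone was 0.11. The likelihood ratio test called 0.101% of all genes for the interaction, limma-voom 0.0%, and DESeq2, which gave an adjusted p to 36 of the 46, called 0.864%. Psmg3 had the largest interaction of the 46 in size, -0.64 (SE 0.39), which was -0.29 without HRC variant library 1.

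The intervals limit what was missed. The 95% interval of the log2 fold change lay within 1 of 0 for 44 of 46 genes with the MYBPC3 deletion, 41 with the HRC variant and 42 in the compound group, each against nontransgenic hearts. It lay within 0.5 for 35, 23 and 24 of them. Changes of 2-fold were thus outside the interval for most genes. Smaller ones were within it to an extent that differed by gene and comparison. The catalytic genes show the scale: in compound against nontransgenic hearts the interval was -0.27 to 0.55 for Psmb5, -0.35 to 0.63 for Psmb6 and -0.07 to 0.59 for Psmb7.

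The 46 genes also varied together between libraries of the same group. For each gene, the deviation of a library is its log2 CPM less the mean over the 12 libraries. The median deviation of the 46 genes was 0.30 in nontransgenic library 1 and 0.21 in MYBPC3 deletion library 2, and between -0.14 and 0.04 in the other 10. In nontransgenic library 1, 42 of 46 genes lay above their own mean, and in nontransgenic library 3, 8 did. The beta genes had medians of 0.51 and 0.43 in the 2 high libraries and -0.25 in HRC variant library 2, and the Psmg chaperones had 0.33, 0.45 and -0.14. Psmb5 shows it, with 132 CPM in nontransgenic library 1 and 122 in MYBPC3 deletion library 2, against 74.0 to 93.7 in the others. Both high libraries are male, and the other 2 male libraries were at -0.06 and 0.04.

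**Figure D4:**
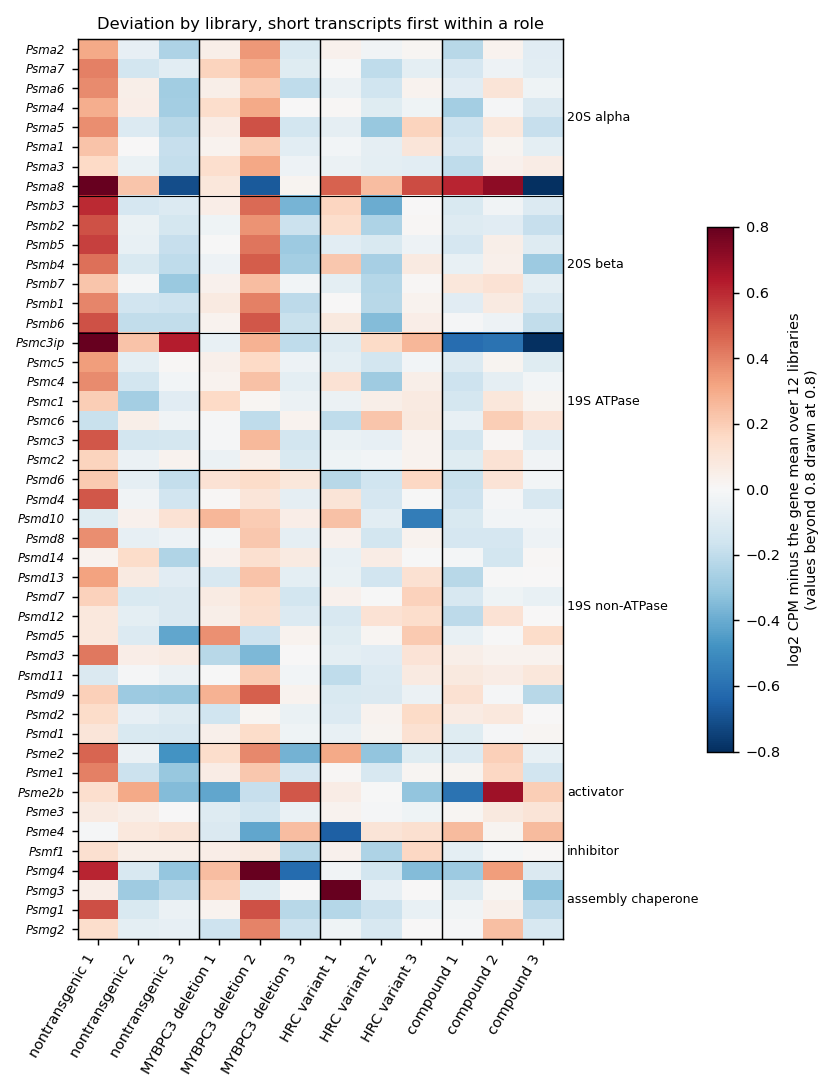
Heat map of log2 CPM minus the mean of each gene over the 12 libraries, with genes in rows (sorted by transcript length within each role) and libraries in columns. The columns of nontransgenic library 1 and MYBPC3 deletion library 2 are red for nearly all alpha and beta genes, while Psme4, the longest transcript, is blue in MYBPC3 deletion library 2.

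Transcript length moved with these deviations. Relative transcript length was taken from the ratio of deposited counts to TPM, with the median of tested genes set to 1.00. The 46 genes had a median of 0.44, 37 of them were in the shortest 25% of all tested genes, and 1, Psme4, was in the longest, with 2.26. In nontransgenic library 1 the shortest 25% of all genes stood 0.44 above the longest in median deviation, and in MYBPC3 deletion library 2 it stood 0.60 above, while in HRC variant library 2 the difference was -0.35. When the trend with length over all genes was removed from each library, the median of the 46 genes was 0.12 in nontransgenic library 1 and -0.09 in MYBPC3 deletion library 2. In other libraries the median moved away from 0. It went from -0.032 to -0.143 in HRC variant library 1 and from 0.039 to -0.078 in MYBPC3 deletion library 1. In HRC variant library 3 it went from 0.029 to 0.095, and in compound library 2 from 0.025 to 0.058. The part of length in the deviations was not tested further than this.

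The sum over the 46 genes was steadier in TPM, which also scales each library to one sum, than in CPM. It ranged from 4661 to 5082 TPM over the libraries, a coefficient of variation of 2.38%, against 3675 to 4828 and 8.43% for the sum of CPM. This did not hold for every gene: Psme4 ran from 53.9 to 113.7 TPM and from 214.4 to 401.5 CPM. Whether length or the scaling made the sum steadier was not tested. By group the summed TPM was 4849 ± 164 (SD, n = 3) in nontransgenic hearts, 4824 ± 77.4 with the MYBPC3 deletion, 4958 ± 67.9 with the HRC variant and 4930.0 ± 137 in compound hearts. The 4 groups overlapped.

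**Figure D5:**
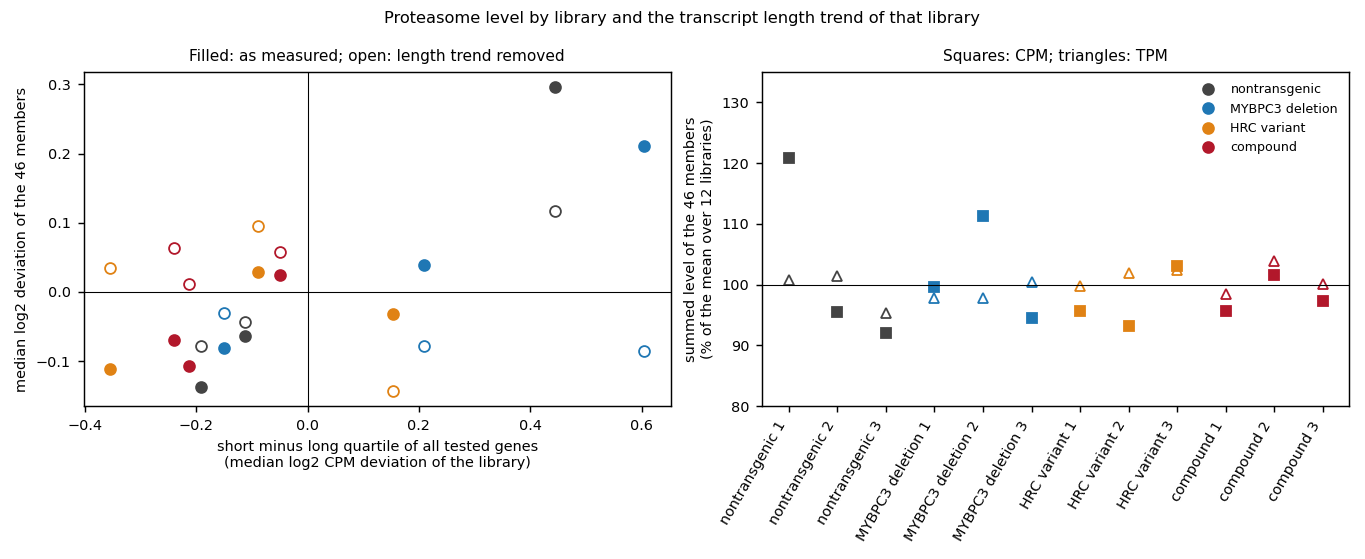
Left, median log2 CPM deviation of the 46 genes in each library against the difference between the shortest and the longest 25% of all tested genes, as measured (filled) and with the length trend removed (open). Right, summed level of the 46 genes per library as a percentage of the mean over libraries, in CPM (squares) and TPM (triangles), where the squares spread from 3675 to 4828 CPM and the triangles from 4661 to 5082 TPM.

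The alpha genes and the beta genes moved together from library to library, and the ATPase genes did so less closely. As a description over the 12 libraries, which share depth and the length trend, the median Spearman correlation between pairs of genes was 0.83 among beta genes and 0.77 among alpha genes without Psma8. It was 0.53 among the 6 ATPases, 0.32 among the 11 other 19S subunits and 0.42 over all 1035 pairs. Psma1, Psma5 and Psma6 followed the median of the other proteasome genes most closely, each with a correlation of 0.92. Psme4 ran against it at -0.62 and Psmc6, the gene of Rpt4, at -0.32. Psmd3 stood at -0.06 and Psme3 at -0.09. The median spread within groups was near that of other genes: at a mean of at least 20 CPM, the median SD of log2 CPM was 0.173 for 38 proteasome genes and 0.193 for all 6806 genes. Among the 38 it ran from 0.04 (Psme3) to 0.353 (Psme2), and among the beta genes from 0.169 (Psmb7) to 0.328 (Psmb3).

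Sex was compared within the nontransgenic and MYBPC3 deletion groups, the only ones with males. The median log2 difference of males over females was 0.23 for the 46 genes, against 0.01 over all genes, and 41 of 46 lay above 0, against 51.3% of all. None was called, against 0.0578% of all genes. At an unadjusted p under 0.05 stood 12 of 46, against 14.3% of all genes. All 12 were higher in males, against 7.37% of all genes: Psma2, Psma4, Psma5, Psma6, Psmb1, Psmb3, Psmb4, Psmb5, Psmb7, Psme1, Psme2 and Psmg4. Psme2 had the smallest p (log2 difference 0.68, SE 0.19, unadjusted p 0.00324, edgeR adjusted p 0.31), and Psma6 followed (0.42, SE 0.13). The 2 libraries with the largest difference between short and long genes, nontransgenic 1 and MYBPC3 deletion 2, are among the 4 male ones, and with the length trend removed the median was 0.02. Over all genes the rank correlation of this difference with transcript length was -0.47. Sex, library and length trend cannot be told apart with 4 male libraries.

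The genes around the proteasome gave no called difference either. The inducible genes Psmb8, Psmb9 and Psmb10 had fitted values above nontransgenic hearts in all 3 mutant groups, with medians of 0.24, 0.74 and 0.66, and 1 of 3 had an unadjusted p under 0.05 with the HRC variant, against 6.23% of all genes. As for the 46 genes, the HRC variant and compound values rest on the sex term. Without it Psmb8, Psmb9 and Psmb10 had 0.27, 0.21 and -0.05 in the HRC variant group and -0.004, 0.13 and -0.09 in the compound group. With the deletion they had 0.26, 0.20 and 0.06 without the term. The gene under 0.05, Psmb8, had 29.5, 18.3 and 11.74 CPM in nontransgenic and 30.5, 19.1 and 21.97 in HRC variant hearts. Its log2 fold change there was 0.96 (SE 0.36, unadjusted p 0.0212, edgeR adjusted p 0.73). The groups overlapped. In compound hearts it had 14.8, 29.0 and 15.5 CPM and a log2 fold change of 0.68 (SE 0.36). Psmb9 had 0.74 (SE 0.41) and 0.66 (SE 0.41) in these 2 comparisons, and Psmb10 0.36 (SE 0.33) and 0.32 (SE 0.33).

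Of 12 interferon-response genes, none was called. With the HRC variant 10 of 12 lay above 0, against 50.7% of all genes, and 1 had an unadjusted p under 0.05, against 6.23%. In the compound group 9 of 12 lay above 0, against 49.7%, and 2 had an unadjusted p under 0.05, against 6.36%. Nlrc5, the transactivator of MHC class I genes, had 4.17, 3.13 and 1.31 CPM, then 2.40, 5.77 and 3.93, then 7.62, 8.42 and 7.88, then 3.59, 11.4 and 3.80. The log2 fold change with the HRC variant was 2.01 (SE 0.64, unadjusted p 0.00835, edgeR adjusted p 0.66), and the libraries of these 2 groups did not overlap. The 7 leukocyte markers summed to 333 to 687 CPM in nontransgenic, 423 to 846 in HRC variant and 360.2 to 583 in compound hearts. Their part in these values was not tested.

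Of 9 further subunits and assembly factors outside the symbol rule, 2 had an unadjusted p under 0.05 with the HRC variant and 1 in compound hearts, all higher, against 6.23% and 6.36% of all genes. Uchl5, a deubiquitinase of the 19S cap, had 19.1, 18.8 and 15.6 CPM in nontransgenic and 20.7, 20.5 and 19.4 in HRC variant hearts, with a log2 fold change of 0.45 (SE 0.17) there and 0.38 (SE 0.17) in compound hearts, or 0.18 and 0.11 without the sex term. Sem1, a small 19S subunit, had a log2 fold change of 0.46 (SE 0.20) with the HRC variant and -0.01 (SE 0.19) in compound hearts, or 0.01 and -0.46 without the sex term. Its CPM were 139.6, 86.3 and 75.4, then 118, 154 and 84.0, then 105, 99.6 and 97.7, then 71.1, 73.1 and 74.4. The 3 compound libraries lay below all 9 others. Compound over HRC variant hearts, both female, gave a log2 fold change of -0.47 (SE 0.16, unadjusted p 0.0113, edgeR adjusted p 0.67), and the interaction was -0.70 (SE 0.22, unadjusted p 0.00806, edgeR adjusted p 0.53). Pomp had log2 fold changes of 0.36 (SE 0.21) and 0.27 (SE 0.21) in the HRC variant and compound groups, which were 0.03 and -0.06 without the sex term, and its profile over the 12 libraries was close to the median of the proteasome genes, with a Spearman correlation of 0.83.

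Another 11 tested genes are regulators linked to Nrf1 or Nrf2, and not all of them act as activators. Of these 11, 1 lay above 0 with the deletion, 4 with the HRC variant and 5 in compound hearts, against 49.2%, 50.7% and 49.7% of all genes, and none was called. Nfe2l1 had 511, 528 and 630.2 CPM, then 545, 376 and 610.5, then 469.5, 645 and 666, then 695, 659 and 697. Its fitted log2 fold changes against nontransgenic hearts were -0.13 (SE 0.16), -0.13 (SE 0.20) and 0.07 (SE 0.20) in that order. The compound libraries lay above all 3 nontransgenic ones, and without the sex term that log2 fold change was 0.30 (SE 0.19, unadjusted p 0.135). Ddi2, the protease that activates the Nfe2l1 product, had 12.0, 12.8 and 13.3 CPM in nontransgenic and 6.82, 5.07 and 9.41 in deletion hearts. The groups did not overlap, and the log2 fold change was -0.87 (SE 0.25, unadjusted p 0.00472, edgeR adjusted p 0.42). Compound hearts, which carry the same deletion, did not share the low level of Ddi2. They had 16.5, 12.7 and 22.5 CPM, which overlapped the nontransgenic range. Among these 11 regulators, 1 had an unadjusted p under 0.05 with the deletion (Ddi2, lower), 0 with the HRC variant and 1 in compound hearts (Maff, lower, -0.70, SE 0.28). The shares of all genes were 8.16%, 6.23% and 6.36%. In compound over deletion hearts 1 was under 0.05 (Ddi2, higher), against 5.73% of all genes.

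Of 11 genes for ubiquitin and its shuttles, 1 had an unadjusted p under 0.05 with the MYBPC3 deletion, against 8.16% of all genes, namely Uba1, the ubiquitin-activating enzyme. It had 337, 332 and 322 CPM against 267, 251 and 300.0, without overlap, and a log2 fold change of -0.28 (SE 0.11, edgeR adjusted p 0.56). In compound hearts, which carry the same deletion, Uba1 had 324, 326.5 and 320.4 CPM and overlapped the nontransgenic group. With the HRC variant 1 of 11 was under 0.05, against 6.23% of all genes: Rad23b, at -0.39 (SE 0.17), or -0.12 without the sex term. None of the 11 was under 0.05 in compound hearts. Of the 6 muscle ubiquitin ligases, none was under 0.05 in any of the 3 comparisons with nontransgenic hearts. Fbxo32 (atrogin-1) had log2 fold changes of -0.14, -0.41 and -0.03, and Trim63 (MuRF1) 0.05, -0.13 and 0.16, for the deletion, the variant and the compound group. In compound over HRC variant hearts, both female, these 2 of the 6 were higher at an unadjusted p under 0.05 in edgeR, against 6.3% of all genes. None was called. Trim63 had 189.9, 185 and 199 CPM in compound hearts, above every other library. Fbxo32 had 177, 157 and 190 CPM there, against 107, 156 and 141 with the HRC variant.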

How the data were processed

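Poly(A) mRNA was sequenced in 12 mouse heart libraries, and the deposited table gives, per the file headers, an estimated count and a TPM for each gene and library. The authors also deposited log2 fold changes and q-values for their own group comparisons, per the file headers. Aligners HISAT and Bowtie2, the test DESeq2 and the build GRCm38.p6 appear in the submitters' processing notes, without roles. The counting tool, versions and use of strand were not given in the sources available. Estimated counts were whole for 94.3% of the deposited values and were rounded here. CPM were computed with edgeR's TMM scaling.

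The fit used edgeR 4.0.16 (quasi-likelihood, robust) in R 4.3.3 on all 12 libraries with terms for group and sex, leaving 7 residual degrees of freedom. A filter with a minimum count of 10 kept 13849 genes and removed 3530, and all 46 proteasome genes were kept. P-values were adjusted by Benjamini-Hochberg over all tested genes, and the unadjusted threshold was 0.05. The biological coefficient of variation was 21.5%. DESeq2 1.42.0, limma 3.58.1 (voom), the likelihood ratio test, other scaling, no filter, no sex term, females only, a replicate block and leaving out each library were alternatives. The fit was tested on simulated counts. Relative transcript length came from the ratio of deposited count to TPM, and its trend was removed by lowess with a span of 0.3. Values by library are given for the highest and lowest gene of each role in TPM, the 4 smallest p-values of each comparison, Psmb5 to Psmb7, Psme1, Psme2 and Psmc3ip, and, from the pathway lists, mainly the smallest p-values. Genes named only for not overlapping between groups were chosen after their values were seen.

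The members and the gene lists were chosen with earlier results of these data known. Gene coordinates are from RefSeq GRCm38.p6, because the deposited ones matched it at both ends for 22 of the 46 genes. Of the 46 genes 8 overlap another listed gene, among them Psme4 (Erlec1), Psmd10 (Atg4a) and Psmf1 (Tmem74b).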

Additional observations from a re-analysis of the deposited data

How the results depend on the processing

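None of the 46 proteasome genes was called in any of the 6 comparisons under any alternative run, and none of 3286 alternative values of the named genes was called, with a smallest adjusted p of 0.2447 (Psmd3, DESeq2). Without the sex term, the median log2 fold change of the 46 genes was -0.079 for the HRC variant, -0.081 for the compound group and -0.116 for the compound group over the deletion, all of the opposite sign. The cause was not tested. The values of the other ubiquitin-system genes without the sex term were chosen after seeing the data. Leaving out 1 library gave medians of -0.097 to 0.109 for the deletion, 0.047 to 0.173 for the variant, 0.042 to 0.143 for the compound group, 0.028 to 0.105 for compound over deletion, -0.032 to 0.047 for compound over variant and -0.158 to 0.119 for the interaction, whose ends lacked nontransgenic library 1 or 2. With the length trend removed the medians were -0.052, 0.028, 0.062, 0.105, 0.060 and 0.118 in this order. Without nontransgenic library 1 and MYBPC3 deletion library 2 together, an alternative chosen after seeing the data, they were 0.060, 0.134, 0.114, 0.040, -0.002 and -0.102. The median correlation between pairs of genes was 0.57 on deviations from group means. Same-numbered libraries did not pair: their deviations correlated at -0.24 to 0.32, 5 of 18 pairs were above 0.1, and 2 libraries matched their own number best. With the replicate block the medians were 0.032, 0.128, 0.118, 0.094, -0.001 and -0.033, with 0 genes called. Fitting only the groups compared was not run for the interaction, which needs all groups. At 3 libraries per group, small differences and those of Psma8, Psme2b and Psmc3ip, with few reads, were not resolved.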

Other observations

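Outside the proteasome, the tested genes whose log2 CPM followed the median of the 46 genes most closely over the 12 libraries were Atp5j, Ptpmt1 and Mrpl15, each with a Spearman correlation of 0.96. Ndufa5, Magoh, Cox7c and Ndufc1 followed with 0.95. Atp5j, Ndufa5, Cox7c and Ndufc1 encode subunits of the respiratory chain or ATP synthase, and Mrpl15 a mitochondrial ribosomal protein. Among genes of the ubiquitin system, Stub1, the gene of the chaperone-linked ligase CHIP, had the highest correlation (0.87), followed by Pomp (0.83). Fbxo32 (-0.71) and Rad23b (-0.66) ran against the proteasome genes. All these correlations are descriptions over libraries that share depth and the length trend.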
